A study of Danio rerio with 3 samples.

Results

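Globin genes encode the protein chains of haemoglobin, which is built from a pair of alpha-type and a pair of beta-type chains around haem. Zebrafish use one set of globins in the embryo and larva and another in the adult, and the red cells that make them keep a nucleus. Red cells therefore carry globin mRNA in large amounts, while endothelial cells, which line vessels, are not known for it. The members described here are 7 genes chosen by name. In the embryonic set, hbae1 and hbz encode alpha-type chains, and hbbe1.1 and hbbe2 encode beta-type chains. In the adult set, hbaa1 encodes an alpha-type chain, and ba1 and ba1l encode beta-type chains. The deposited tables held rows for 6 of the 7, among 16029 rows with a UMI, and had no row named ba1. Globin genes have close relatives in sequence, and how reads shared between relatives were counted is not given in the sources used here, so the split between members is uncertain. The RefSeq table of zebrafish assembly GRCz12tu lists hbz as an older name of both hbae4 and hbae5, so that row may stand for either. It places hbae1, hbbe1.1, ba1l and hbaa1 on one chromosome, and hbz and hbbe2 on another.

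The study sorted cells carrying a fli1a:dsRed reporter, labelled endothelial cells, from anal fins of immature zebrafish at Stage II-III, and its title concerns blood vessels formed from lymphatic ones. The promoter fli1a is active in endothelium, and no other allele or treatment is given in the labels. Fins were pooled, with 80 dissected fins named for each plate, and the labels do not say whether plates came from separate fish. The 3 plates are repeats of 1 group, each with 384 wells of MARS-seq, in which a cell barcode marks the well and a unique molecular identifier (UMI) marks each captured mRNA. The authors listed 384, 384 and 268 wells of plates 1, 2 and 3 as analysed, 1036 in all. The plates held 559559, 481392 and 221176 UMIs, and the analysed wells had median depths of 1064.5, 914.5 and 382 UMIs. All 384 cell barcodes were shared by the 3 plates, whose libraries were sequenced in 1 batch. Of the analysed wells, leaving out the 3 globin-rich wells described next, 275, 270 and 105 had at least 2 UMIs of pan-endothelial markers in plates 1, 2 and 3.

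Most globin mRNA lay in 3 wells. The analysed wells held 758 globin UMIs, of which 193 were hbae1, 261 hbz, 44 hbbe1.1, 202 hbbe2, 37 ba1l and 21 hbaa1. A well at coordinate M19 of plate 2 had 450 globin UMIs, a well at L22 of plate 1 had 92, and a well at D6 of plate 2 had 34. These are the wells above 30 globin UMIs, called globin-rich below. Together they held 576 globin UMIs, or 76.0% of the total, and M19 alone held 59.4%. The share in globin-rich wells was 84.5% for hbae1, 71.6% for hbz, 86.4% for hbbe1.1, 71.8% for hbbe2, 73.0% for ba1l and 76.2% for hbaa1, so no member owed less than 71.6% of its UMIs to them. The wells nearest below 30 were B5 of plate 1 with 13, L22 of plate 2 with 10 and I22 of plate 1 with 9.

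The cell barcodes of the globin-rich wells are shown because each barcode recurs at its coordinate on every plate, which bears on a result given below. They are written 5′ to 3′ as deposited, in lower case with no part marked.
L22: gtccata
M19: tcgatac
D6: cgaattc

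The 3 wells held different sets of globins. In M19 all 450 globin UMIs were embryonic, with 141 hbae1, 161 hbz, 36 hbbe1.1 and 112 hbbe2. Neither adult row had a UMI there, which allows an adult share of up to 0.816% of its globin UMIs (exact 95% interval, here and below covering counting error only). D6 was the opposite case. It had 23 ba1l and 11 hbaa1 UMIs and none of the 4 embryonic rows, which allows an embryonic share of up to 10.3%. L22 of plate 1 held both sets, with 22 hbae1, 26 hbz, 2 hbbe1.1 and 33 hbbe2 UMIs beside 4 ba1l and 5 hbaa1. Its adult share was 9.78% (4.57 to 17.8). Each globin-rich well thus had at least 1 alpha-type and 1 beta-type row of the set or sets it held. Alpha-type rows made up 67.1% of globin UMIs in M19 (62.6 to 71.4), 57.6% in L22 (46.9 to 67.9) and 32.4% in D6 (17.4 to 50.5).

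**Figure D1:**
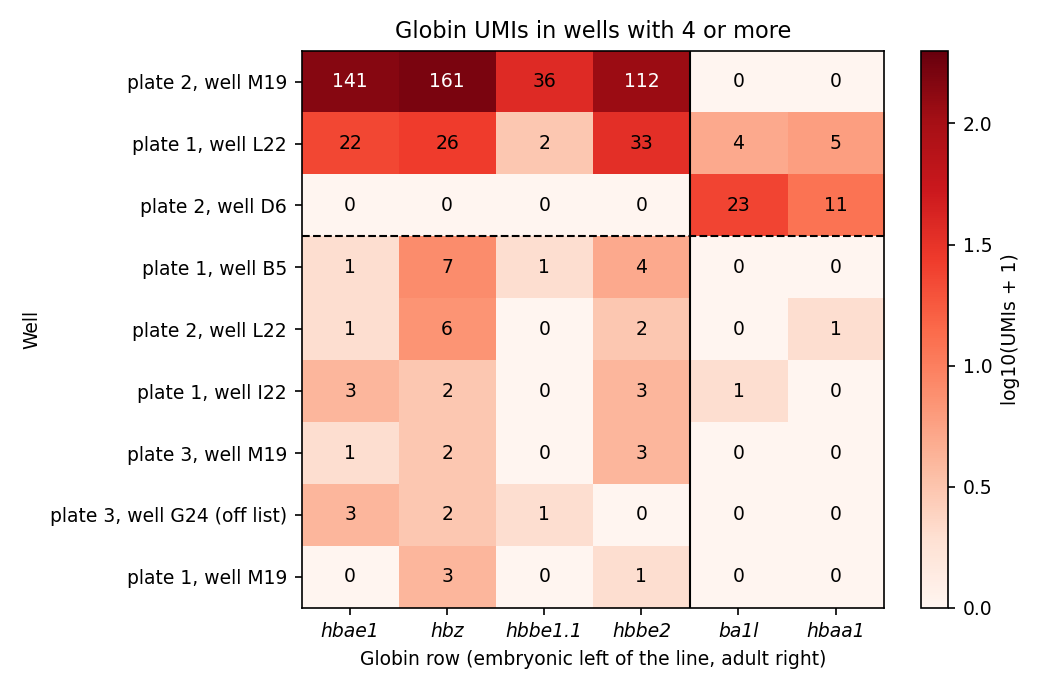
Globin UMIs (number in each cell, shade on a log10 scale) in the wells with 4 or more of them, by globin row, with wells above the dashed line having over 30. M19 of plate 2 holds embryonic rows only, D6 of plate 2 adult rows only, and L22 of plate 1 both.

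Other red-cell genes accompanied the globins in M19 most clearly. M19 had 16 UMIs of hbae3, a further embryonic alpha-type globin outside the members, and 10 of cahz, a carbonic anhydrase of zebrafish red cells. At the rate of the plate's other wells, 0.0244 hbae3 and 0.0183 cahz UMIs would fall on a well of that depth. M19 also had 5 UMIs of slc4a1a, the anion exchanger of the red-cell membrane. It had 2 of epb41b and 1 of ank1a, which belong to the membrane skeleton. Other rows of the erythroid list had 0 UMIs in all 3 globin-rich wells, namely gata1a, klf17, ca2, nt5c2l1, sptb, rhag, rhd, tal1, nfe2 and blvrb. L22 of plate 1 had 2 UMIs of alas2, the red-cell form of the first enzyme of haem synthesis. D6 had no UMI of any other gene of the erythroid list. Globins made up 15.4% of the 2913 UMIs in M19, 8.88% of the 1036 in L22 and 1.97% of the 1728 in D6.

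Endothelial transcripts were also present in the same wells. The blood-vessel aquaporin aqp8a.1 had 40 UMIs in M19, 10 in L22 and 2 in D6, beside 18.8, 5.98 and 11.1 at the rate of the other wells of their plates. M19 and L22 thus lay above that rate and D6 below it. Summed blood endothelial markers, aqp8a.1 included, reached 62, 15 and 12 UMIs in M19, L22 and D6, and pan-endothelial markers 17, 4 and 3. Muscle markers had 0, 0 and 5 UMIs in the same order, so D6 had more of them than of pan-endothelial markers. For these marker lists no count at the rate of other wells was worked out. The wells were not the deepest of their plates, since 33 wells of plate 2 were deeper than M19, 195 of plate 1 deeper than L22 and 100 of plate 2 deeper than D6. The part of more than 1 cell in a well was not tested.

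Outside the 3 wells, globin counts were low and uneven between plates. At least 1 globin UMI occurred in 114 of 1033 wells, or 11.04% (exact 95% interval 9.19 to 13.1), with 182 UMIs in all, and 82 of the 114 had a single one. The share was 4.70% in plate 1 (18 of 383 wells, 42 UMIs), 24.1% in plate 2 (92 of 382 wells, 130 UMIs) and 1.49% in plate 3 (4 of 268 wells, 10 UMIs). The summed level, given as counts per 1000000 UMIs of the wells concerned (CPM), was 75.2, 273 and 69.2 CPM in plates 1, 2 and 3. Plate 2, which held 2 of the globin-rich wells, was the highest on each measure. Thinning each well to 300 UMIs lowered the shares to 1.49%, 5.14% and 0.662% and left plate 2 highest. It left out 48, 71 and 117 shallower wells of plates 1, 2 and 3, and the level in plate 3 then rests on 1 well.

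In these wells the rows ranked as follows, on counts of 3′ ends that do not scale with transcript length. hbz led with 74 UMIs in 55 wells, and hbbe2 followed with 57 UMIs in 44 wells. hbae1 had 30 UMIs in 28 wells. The remaining embryonic row, hbbe1.1, had 6 UMIs in 6 wells. The adult rows ba1l and hbaa1 had 10 UMIs in 10 wells and 5 in 5 wells, and so never more than 1 per well. Embryonic rows made up 91.8% of these UMIs (86.8 to 95.3) and adult rows 8.24% (4.69 to 13.2). By CPM in each plate, hbz was at 32.2, 109 and 27.7, hbbe2 at 17.9, 92.3 and 20.8, and hbae1 at 14.3, 39.9 and 20.8 in plates 1, 2 and 3. hbz thus stood highest in every plate, and the neighbouring rows hbz and hbbe2 differed by less than their spread over plates. In plate 3 neither adult row nor hbbe1.1 was detected in 268 analysed wells, which allows up to 1.37% of wells with a UMI of each at this depth and does not bound the share of cells that carry the mRNA.

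M19 and the low wells of its plate differed in the share of some rows. In M19, hbae1 made up 31.3% of globin UMIs (27.1 to 35.8), against 14.6% in the other wells of plate 2 (9.03 to 21.9). Adult rows made up 0% in M19 and 8.46% in those wells (4.30 to 14.6). hbbe1.1 stood at 8.00% in M19 (5.67 to 10.9) and 3.08% in those wells (0.845 to 7.69). hbz stood at 35.8% in M19 (31.3 to 40.4) and 40.0% in those wells (31.5 to 49.0), and hbbe2 at 24.9% in M19 (21.0 to 29.2) and 33.8% in those wells (25.8 to 42.7). The intervals for hbae1 and for adult rows did not overlap, while those for hbbe1.1, hbz and hbbe2 did. With D6 added to M19, adult rows made up 34 of 484 globin UMIs in the globin-rich wells of plate 2, or 7.02% (4.91 to 9.68), which overlaps the interval of the other wells. These intervals treat UMIs of a plate as independent draws and do not measure spread between wells.

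**Figure D2:**
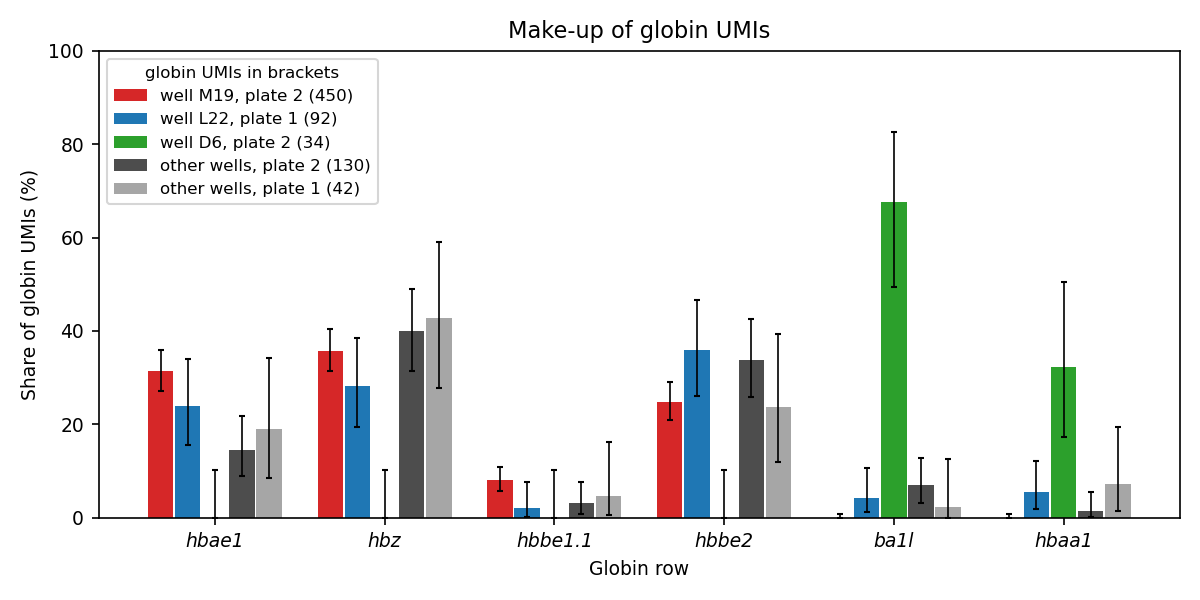
Share of globin UMIs held by each globin row (%) in the 3 globin-rich wells and in the other wells of plates 1 and 2, with exact 95% intervals as error bars. hbae1 is at 31.3% in M19 and at 14.6% in the other wells of plate 2, and D6 differs from the rest in holding ba1l and hbaa1 alone.

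Wells with more than 1 globin UMI usually held more than 1 globin. Among the 32 wells outside the globin-rich ones with at least 2 globin UMIs, 6 showed 1 globin row, 21 showed 2 and 5 showed 3 or more. For these numbers of rows, no count expected from the make-up of globin UMIs was worked out. An alpha-type and a beta-type row occurred together in 19 of the 32, and an embryonic and an adult row in 5. The pair hbz and hbbe2, an alpha-type and a beta-type row that the RefSeq table places on the same chromosome, was the most frequent. Both were present in 15 wells, beside 6.95 wells from the product of their shares within plate and depth class (4 classes of equal size per plate). The 15 include M19 of plates 1 and 3 and L22 of plate 2, coordinates taken up below. Alpha-type with beta-type rows gave 19 wells beside 10.7 by the same product, and embryonic with adult rows 5 beside 3.13. The adult pair ba1l and hbaa1 shared 0 wells outside the globin-rich ones and 2 wells with them, L22 of plate 1 and D6 of plate 2. Over the 1033 wells, hbz and hbbe2, each as log2(1 + UMIs per 1000 UMIs of the well), correlated at Pearson's r = 0.31 and Spearman's rho = 0.27. With the globin-rich wells the values were 0.53 and 0.30, so Pearson's r leaned more on those wells. The points share plate and depth, no test was made, and all 15 pairs were computed.

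Wells at the coordinates of M19 and L22 stood high on the other plates too. At L22, the globin-rich coordinate of plate 1, plate 2 had 10 globin UMIs at a depth of 506, the most of any well of that plate outside the globin-rich ones, whose others reached 3 at most. Plate 3 had 2 at that coordinate in a well of 109 UMIs that the authors did not list as analysed. At M19, the globin-rich coordinate of plate 2, plate 1 had 4 globin UMIs, with 3 wells of the plate higher. Plate 3 had 6 at M19 at a depth of 315, the joint highest of its 384 wells. The wells at these coordinates that were not globin-rich numbered 1, 1 and 2 in plates 1, 2 and 3. Their globin UMIs were 4 and 10 in the single wells of plates 1 and 2, and 4 on average in plate 3. The other 382, 381 and 382 wells that were not globin-rich averaged 0.0995, 0.315 and 0.0314. Wells at these coordinates held 9.52%, 7.69% and 40.0% of the globin UMIs outside the globin-rich wells, counting unlisted wells. D6 behaved otherwise, with 0 globin UMIs on plates 1 and 3. B5 and I22, with 13 and 9 on plate 1, had 2 and 1 on plate 2 and 0 on plate 3. Of all 384 coordinates, M19 and L22 included, 9 had globin on both plates 1 and 2, beside 4.65 from the product of shares. Plates 1 and 3 shared 2 beside 0.396, and these were M19 and L22 themselves. Plates 2 and 3 shared 3 beside 1.96, namely M19, L22 and N22. The counts with plate 3 thus restate the result for M19 and L22 and do not extend it to other coordinates. That product takes no account of depth.

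The make-up of these counts can be set beside the globin-rich well of the same barcode. The 6 UMIs at M19 of plate 3 were 1 hbae1, 2 hbz and 3 hbbe2, and the 4 at M19 of plate 1 were 3 hbz and 1 hbbe2. All were embryonic, as in M19 of plate 2. Embryonic rows also made up 91.8% of globin UMIs over all analysed wells that were not globin-rich. Counts this small therefore cannot tell the make-up of M19 from that of other wells. The 10 at L22 of plate 2 were 1 hbae1, 6 hbz, 2 hbbe2 and 1 hbaa1. Both sets were thus present as in L22 of plate 1, but the adult set by 1 UMI only. The 6 hbz beside 1 hbae1 were also unlike the 26 and 22 of L22 of plate 1. The same coordinate means the same cell barcode, and the pool barcodes that tell the plates apart differ by 4, 2 and 4 of 4 bases for plates 1 and 2, 1 and 3, and 2 and 3. The part of this shared barcode in the counts was not tested. Within a plate, adjacent wells did not stand high. The 8 wells around L22 of plate 1 had 0 globin UMIs, and those around M19 and D6 of plate 2 had 3 each, with 2 of 8 wells positive around each, against 24.1% of all other wells of the plate. Of the 38 wells in the same row or column, 10.5% had globin for L22 (2.94 to 24.8, 12 UMIs in 4 wells), 34.2% for M19 (19.6 to 51.4) and 26.3% for D6 (13.4 to 43.1), against 4.70% of all other wells of plate 1 and 24.1% of plate 2. In plates 1 and 2 the 5 wells whose barcodes lay 1 or 2 mismatches from that of L22 or of M19 had 0 globin UMIs each, and the 8 such wells of D6 had 3 in 2 wells.

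**Figure D3:**
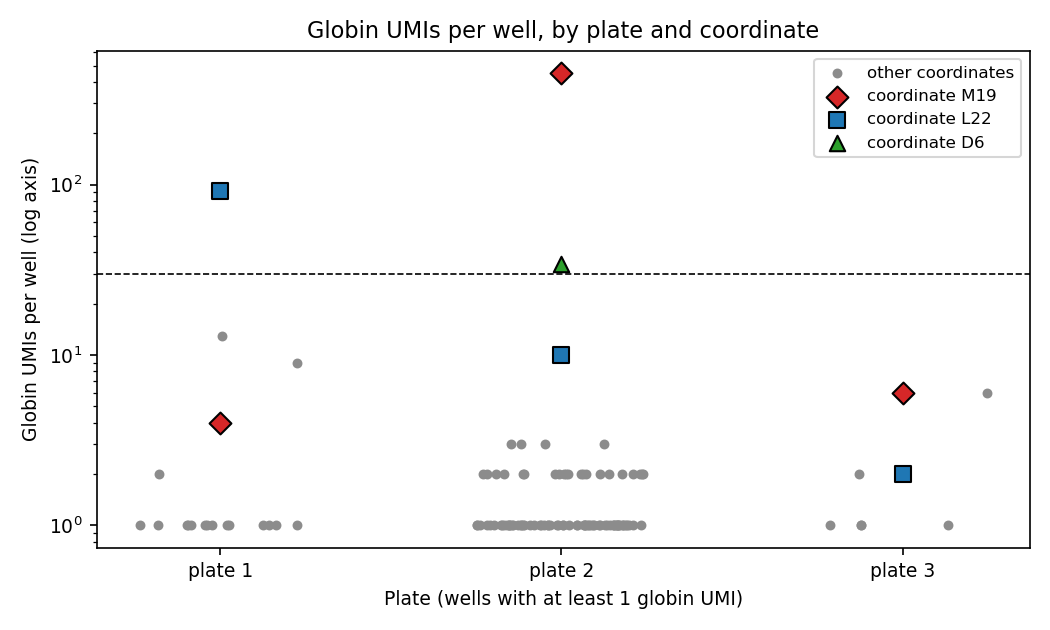
Globin UMIs per well (log axis) in the wells with at least 1, by plate, unlisted wells of plate 3 included, with the coordinates of the globin-rich wells marked and the dashed line at 30. Coordinates M19 and L22 lie at 4 to 10 in plates where they are not globin-rich, apart from L22 of plate 3 at 2, while most other wells lie at 1 or 2.

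The share of wells with a globin UMI moved with depth most clearly in plate 2. There it was 12.5%, 11.5%, 26.3% and 46.3% from the shallowest to the deepest of 4 equal depth classes of wells, at median depths of 204, 654, 1309 and 2494 UMIs. The level ran the other way, at 621, 384, 243 and 236 globin CPM. Plate 1 had shares of 4.17%, 6.32%, 0% and 8.33% over the same order of classes, and plate 3 had 0%, 1.49%, 1.49% and 2.99%. Wells with markers of other cell types showed globin too. In plate 2, 35.3% of the 68 wells with at least 2 keratinocyte marker UMIs had a globin UMI (24.1 to 47.8, median depth 1382), against 29.6% of the 270 wells with at least 2 pan-endothelial marker UMIs (24.2 to 35.5, median depth 1296.5). In plates 1 and 3 the shares were 7.06% and 4.35% in keratinocyte-marker wells, against 4.73% and 0.952% in endothelial-marker wells. A well can be in both sets, and 865 UMIs of the keratinocyte list are of the single gene krt4. By level, keratinocyte-marker wells stood at 62.8, 395 and 114 CPM of globin in plates 1, 2 and 3, against 74.4, 273 and 21.3 CPM in endothelial-marker wells. Wells with markers of the remaining types were few. In plate 2 globin occurred in 23.1% of 13 wells with muscle markers (5.04 to 53.8) and 30.8% of 13 with thrombocyte markers (9.09 to 61.4). In plate 1 it occurred in 0 of 8 wells with thrombocyte, 0 of 11 with neutrophil and 0 of 4 with fibroblast or osteoblast markers, which allows up to 36.9%, 28.5% and 60.2%. It occurred in 1 of 13 wells of plate 1 with muscle markers. Plate 2 had it in 1 of 2 wells with neutrophil and 2 of 3 with fibroblast or osteoblast markers. Plate 3 had it in 1 of 19 with thrombocyte and 0 of 13 with neutrophil markers. Among wells with erythroid markers, 0 of 1, 1 of 3 and 0 of 4 had globin in plates 1, 2 and 3.

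Whether low globin counts follow aqp8a.1 was asked by splitting the wells at 1 aqp8a.1 UMI. The answer differed between plates. In plate 1, 12 of 277 wells with aqp8a.1 had globin (4.33%), against 6 of 106 wells without it (5.66%). In plate 2 the counts were 78 of 264 wells with aqp8a.1 (29.5%) and 14 of 118 wells without it (11.9%). Plate 3 had 2 of 131 wells with aqp8a.1 (1.53%) and 2 of 137 wells without it (1.46%). The wells with aqp8a.1 were also the deeper ones, with medians of 1345, 1207 and 579 UMIs in plates 1, 2 and 3, against 495, 437 and 197 in wells without it.

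In CPM, which divides by depth but in plate 2 was itself lower in deeper wells, the excess in that plate was smaller. Wells with aqp8a.1 had 75.3, 289 and 32.3 globin CPM in plates 1, 2 and 3, against 74.8, 187 and 136 in wells without it. The classes were close in plate 1, wells with aqp8a.1 were higher in plate 2, and they were lower in plate 3. The closeness in plate 1 rests on few wells. Of the 36 globin UMIs in its wells with aqp8a.1, 13 were in B5, 9 in I22 and 4 in M19. Its wells without aqp8a.1 had 6 UMIs in 6 wells. The value of 136 in plate 3 rests on the 6 UMIs of well M19, and was 19.5 with the coordinates of globin-rich wells left out. Thinning to 300 UMIs, with classes drawn again from the thinned counts, gave shares of 1.90%, 6.83% and 0% in wells with aqp8a.1 and 1.13%, 3.33% and 1.14% in wells without it. Those shares count 3, 11 and 0 wells with aqp8a.1 and 2, 5 and 1 without it.

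Within depth classes of plate 2, the share was higher with aqp8a.1 in 3 of the 4 classes. In the deepest class of plate 2, 48.8% of 86 wells with aqp8a.1 had globin (37.9 to 59.9), against 22.2% of 9 wells without it (2.81 to 60.01). In the shallowest class the shares were 9.76% of 41 wells with aqp8a.1 (2.72 to 23.1) and 14.5% of 55 wells without it (6.50 to 26.7). In the third class 26.9% of 78 wells with aqp8a.1 had globin (17.5 to 38.2), against 23.5% of 17 wells without it (6.81 to 49.9). The second class of plate 2 had 18.6% of 59 wells with aqp8a.1 (9.69 to 30.9) and 0 of 37 wells without it, which allows up to 9.49%. Plates 1 and 3 had no steady order. From the shallowest to the deepest class, plate 1 had 0%, 7.35%, 0% and 7.95% with aqp8a.1, against 7.41%, 3.70%, 0% and 12.5% without it. Plate 3 had 0%, 0%, 0% and 4% with aqp8a.1, against 0%, 2.5%, 3.85% and 0% without it, each from at most 2 wells with globin. By aqp8a.1 count, plate 2 had 187, 254, 310 and 323 globin CPM in wells with 0, 1 to 4, 5 to 19 and 20 or more aqp8a.1 UMIs. Plate 1 had 74.8, 29.4, 104 and 135, and plate 3 had 136, 16.4, 75.7 and 0. In plate 1, well I22 held 9 of the 11 globin UMIs behind the 104, and B5 held 13 of the 18 behind the 135. In plate 3, M19 held 6 of the 7 behind the 136. Only in plate 2 was each value above the one before. Over all 1033 wells globin and aqp8a.1, each as log2(1 + UMIs per 1000 UMIs of the well), correlated at Pearson's r = 0.04 and Spearman's rho = 0.10. This is a description over wells that share plate and depth.

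**Figure D4:**
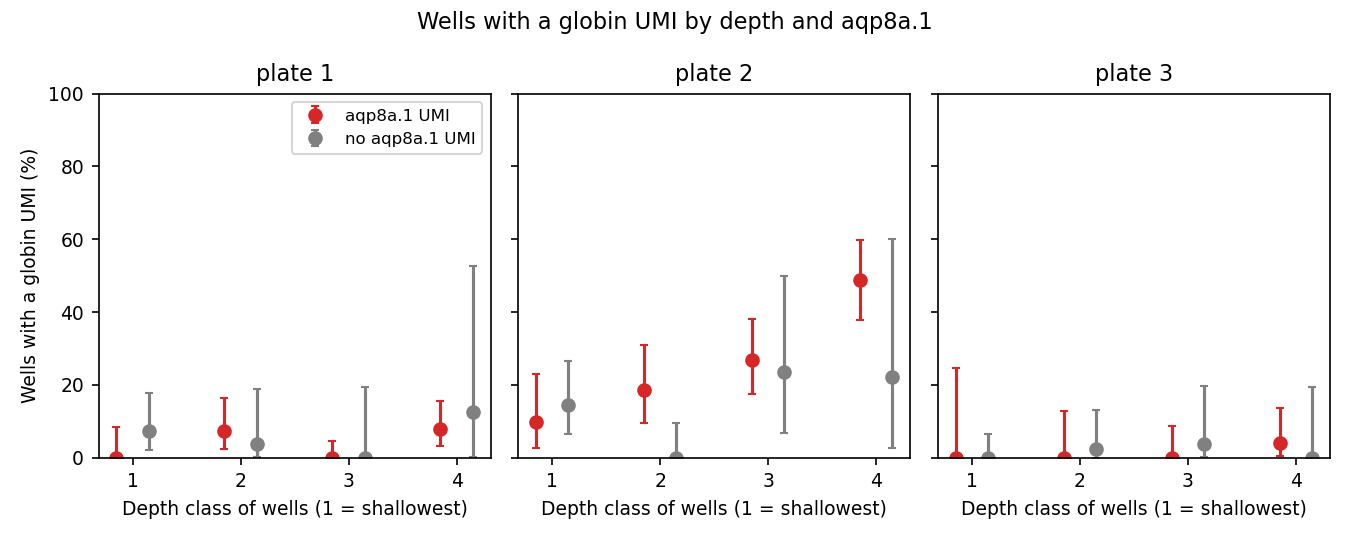
Share of wells with a globin UMI (%) by depth class of wells in each plate (1 is the shallowest), with wells carrying an aqp8a.1 UMI left of wells without one and exact 95% intervals as error bars. In plate 2 the share reaches 48.8% in the deepest wells with aqp8a.1, against 22.2% in those without it, with overlapping intervals. Plates 1 and 3 stay low, with neither kind of well higher throughout.

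No single globin was called in the aqp8a.1 split once the globin-rich wells were left out. For each plate the UMIs of both classes were summed, and edgeR's quasi-likelihood test, blocked on plate, was adjusted over all rows by Benjamini and Hochberg. The members were too sparse for the expression filter, so their values come from the fit without it, in which 12 of 15813 rows were called (0.0759%). Of the 6 members, 0 were called, and 0 had an unadjusted p under 0.05, in edgeR as in DESeq2. Over all 15813 rows, edgeR had 542 at that unadjusted level. hbz had 17, 45 and 2 UMIs in wells with aqp8a.1 in plates 1, 2 and 3, against 1, 7 and 2 in wells without it. Its log2 fold change was 0.64 (SE 0.59, edgeR adjusted p = 0.973). hbbe2 had 9, 42 and 0 UMIs in wells with aqp8a.1, against 1, 2 and 3 in wells without it, a log2 fold change of 0.85 (SE 0.73, edgeR adjusted p = 0.973). hbae1 had 6, 17 and 1 UMIs in wells with aqp8a.1, against 2, 2 and 2 in wells without it, a log2 fold change of -0.06 (SE 0.83, edgeR adjusted p = 0.998). The median over all rows of this fit was 0.40, so relative to the median row hbz stood at 0.24, hbbe2 at 0.45 and hbae1 at -0.46. The errors, worked back from the test statistic as stated under processing, are wide enough that neither a sizeable difference nor none can be read from them. Plate 2 carried most UMIs, and without it hbbe2 was at -0.88. The other members were sparser still, with 5, 8 and 3 UMIs of hbbe1.1, ba1l and hbaa1 in wells with aqp8a.1, against 1, 2 and 2 in wells without it.

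Keeping the 3 globin-rich wells turned 3 of the members into called genes. All 3 wells carry aqp8a.1, so their globin UMIs fall in that class. hbz then had 43, 206 and 2 UMIs in wells with aqp8a.1, against 1, 7 and 2 in wells without it, and a log2 fold change of 2.53 (SE 0.43, edgeR adjusted p = 1.8e-05). hbbe2 had 42, 154 and 0 UMIs in wells with aqp8a.1, against 1, 2 and 3 in wells without it, a log2 fold change of 2.83 (SE 0.51, edgeR adjusted p = 4.8e-05). hbae1 had 28, 158 and 1 in wells with aqp8a.1, against 2, 2 and 2 in wells without it, a log2 fold change of 2.76 (SE 0.52, edgeR adjusted p = 0.00017). In that fit 26 of 15845 rows were called (0.164%), and the median row stood at 0.44. The summed level in wells with aqp8a.1 was then 267 and 1476 CPM in plates 1 and 2, so that these calls rest on 3 wells. M19 and L22 hold the added UMIs of all 3 called rows. The test used sums, so its p-values do not take account of many UMIs coming from 1 well.

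**Figure D5:**
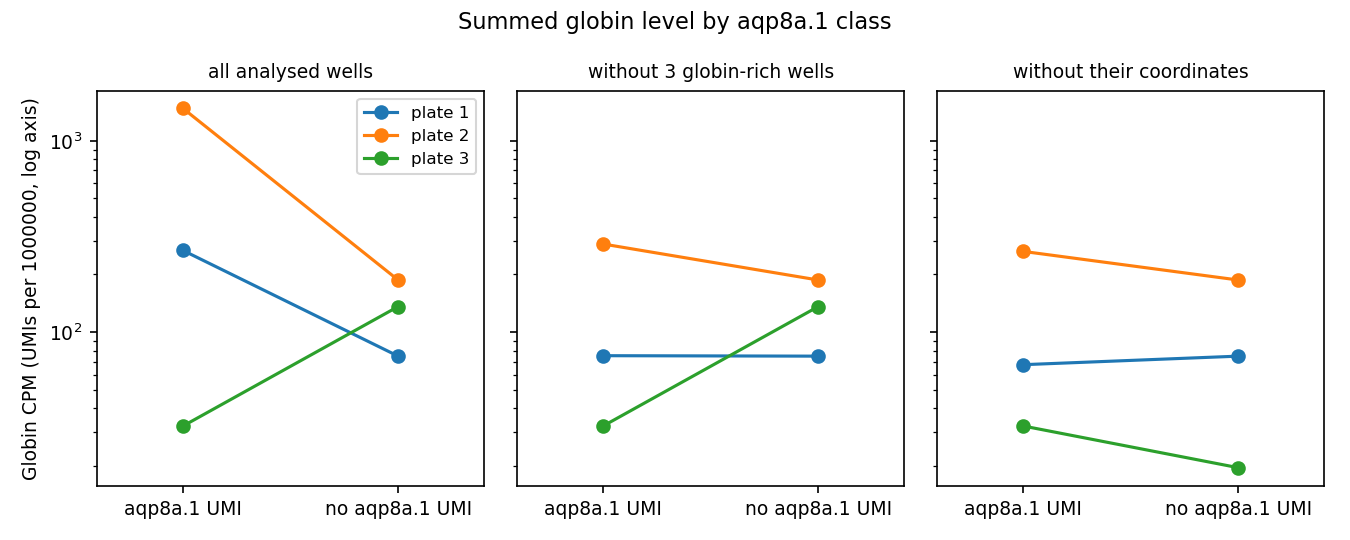
Globin CPM (log axis) in wells with an aqp8a.1 UMI, left, and without one, right, in each plate, for all analysed wells, without the 3 globin-rich wells, and without their coordinates on any plate. With all wells plate 2 stands at 1476 against 187, without the 3 wells at 289 against 187, and plate 3 turns from 32.3 against 136 to 32.3 against 19.5 when the coordinates are left out.

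Splits by other markers gave no called globin either, without the globin-rich wells. For blood-vessel markers other than aqp8a.1 (aqp1a.1, plvapa, plvapb, esm1 and kdrl), wells with a marker had 74.5, 264 and 96.7 globin CPM in plates 1, 2 and 3, against 84.9, 362 and 0 in wells without one. Plates 1 and 2 were lower with the markers and plate 3 was higher, but wells with a marker were also far deeper, at medians of 1276.5, 1207 and 617 UMIs, against 352, 289.5 and 148. At 300 UMIs per well the order turned in plates 1 and 2. The values were 182, 333 and 253 CPM with a marker in plates 1, 2 and 3, against 50.1, 165 and 0 without one. With a marker they came from 11, 17 and 6 globin UMIs in 3, 10 and 1 wells, and without one from 2, 7 and 0 UMIs. The 1 well of plate 3 was M19, and the 96.7 CPM of that plate was 38.8 without the coordinates of globin-rich wells. By share of wells at own depth, plate 2 had 27.1% with a marker and 15.3% without one. For lymphatic markers (lyve1a, lyve1b, mrc1a, stab1 and nrp2a), wells with a marker had 59.4, 225 and 0, against 124, 394 and 126 in wells without one, lower in every plate. Here too wells with a marker were deeper, at medians of 1454, 1334 and 750 UMIs, against 634, 547 and 240.5. At 300 UMIs per well the values were 0, 160 and 0 CPM with a marker and 192, 306 and 192 without one. They came from 0, 5 and 0 globin UMIs with a marker and 13, 19 and 6 without one, the last 6 in well M19 of plate 3. By share of wells at own depth, plate 2 had 28.2% with a marker and 19.3% without one, and the 126 of plate 3 was 50.7 without the coordinates of globin-rich wells. By edgeR without the filter, 0 of 6 members were called in each split, where 43 of 15809 rows (0.272%) and 67 of 15809 rows (0.424%) were called. With the filter, which no member passed, the calls were 11 of 951 genes (1.16%) and 90 of 1752 genes (5.14%). At an unadjusted p under 0.05, the edgeR fits without the filter had 747 and 686 of 15809 rows, and 1 of 6 members in each. The members were hbbe2 in the blood-marker split (log2 fold change 2.10, SE 1.06, edgeR adjusted p = 0.953) and hbz in the lymphatic-marker split (log2 fold change -0.99, SE 0.44, edgeR adjusted p = 0.878). The medians over all rows were 0.84 and 0.13, so relative to the median row hbbe2 stood at 1.26 and hbz at -1.12. DESeq2 had 0 members at that level in both. With the globin-rich wells kept, edgeR called hbz and hbbe2 in the blood-marker split and 0 members in the lymphatic-marker split. At that setting 45 of 15841 rows (0.284%) and 61 of 15841 rows (0.385%) were called. The 3 wells all carry a blood marker, while L22 of plate 1 carries no lymphatic one.

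With the expression filter, the aqp8a.1 split called 9 of 1106 genes (0.814%). Higher in wells with aqp8a.1 were aqp1a.1, another aquaporin, at 694.5 ± 252 CPM against 267.8 ± 82.9 (SD, n = 3 plates), with a log2 fold change of 1.31 (SE 0.23, edgeR adjusted p = 2.2e-06), and the fenestral diaphragm genes plvapa, in row si:dkey-208k22.3, at 1.46 (SE 0.28) and plvapb, in row vsg1, at 0.78 (SE 0.11). The metalloproteinase genes mmp13a and mmp9 were higher in the fit over plates, by 2.01 (SE 0.45) and 1.79 (SE 0.34). In plate 2 alone mmp9 was lower in wells with aqp8a.1, at 9.95 against 13.4 CPM, on 4 and 1 UMIs. mmp13a had 1, 0 and 10 UMIs in wells without aqp8a.1 in plates 1, 2 and 3. The Notch ligand gene jag2b, the AP-1 gene fosb and the selenoprotein gene sepp1a were lower, at -0.96, -0.87 and -0.81. The calls of jag2b and fosb were each lost in 7 of 13 alternative settings, and those of mmp13a and mmp9 in 5 of 11, and jag2b was at -0.039 in wells thinned to 300 UMIs. The neutrophil list, which holds mmp13a and mmp9, stood at 811, 72.2 and 2540 CPM in wells with aqp8a.1 in plates 1, 2 and 3, against 150, 13.4 and 738 in wells without it, and its part in those calls was not tested. Without plate 2, 0 genes were called by edgeR (49 at an unadjusted p under 0.05). DESeq2 called 3.

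Seen from the globin side, wells with 1 to 30 globin UMIs were not called for aqp8a.1. They had 6714, 7617 and 6080 aqp8a.1 CPM in plates 1, 2 and 3, against 5714, 5727 and 4565 in wells without globin. The order was the same in each plate, though in plate 3 well J5 held 19 of the 23 aqp8a.1 UMIs behind the 6080. The log2 fold change of 0.14 (SE 0.25, edgeR adjusted p = 0.999) was within its error. Relative to the median of all genes tested it stood at 0.22, and at 0.25 in the fit without the expression filter, whose median row lay at -0.58. Of 1905 genes tested, edgeR called 0 (0.0%), with 33 at an unadjusted p under 0.05, and DESeq2 called 0, with 10. Plate 3 entered that split with 4 wells of globin and 3783 UMIs. In simulated data of the same depths, the test recovered 51.4% of 179 genes changed by a log2 of 2, so a share of changes of that size would be missed here.

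Red-cell genes other than globins had few UMIs in the low wells. Of 30 symbols of the erythroid list, 20 rows other than members were present, and only lmo2, a haematopoietic and endothelial transcription cofactor, passed the filter. It was not called, with a log2 fold change of 0.20 (SE 0.47, edgeR adjusted p = 0.999), against a median of -0.08 over all genes tested. The summed erythroid markers stood at 0, 60.5 and 264 CPM in wells with low globin in plates 1, 2 and 3, against 26.7, 78.0 and 185 in wells with none. The 264 of plate 3 is a single UMI among the 3783 of its low wells. In the low wells slc4a1a, gata1a, the erythroid transcription factor, and epb41b had 0 UMIs, alas2 had 1, cahz 2 and hbae3 3. In wells without globin, which hold far more UMIs in all, gata1a had 6, alas2 1, cahz 3 and hbae3 2. In CPM, the low wells stood at 4.57 for alas2, 9.13 for cahz and 13.7 for hbae3, against 1.04, 3.12 and 2.08 in wells without globin, on counts of at most 3 UMIs. Also higher in the low wells were ank1a, rhd and lmo2. Lower there were rhag at 27.4 against 36.4 CPM, tal1 at 9.13 against 21.9, klf17 at 9.13 against 10.4 and nt5c2l1 at 4.57 against 7.29. The rows gata1a, nfe2, blvrb, ca2, epb41b, sptb and hbbe3 had 0 UMIs in the low wells and were detected in wells without globin. The haem and iron list had 21 rows of 23 symbols, of which 3 were tested and 0 called. Among them the ferritin rows fth1a and zgc:92066 stood at 0.32 (SE 0.33) and -0.25 (SE 0.36). The other row tested, ftr82, has the symbol of a finTRIM-family gene and not of a ferritin, and stood at -0.18 (SE 0.59).

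By correlation of log2(1 + UMIs per 1000) over the 1033 wells, the genes most like summed globin were rbp7b (r = 0.21), a retinol-binding protein gene, pdia3 (0.18), a protein disulphide isomerase gene, uqcrfs1 (0.16), a respiratory chain subunit gene, sc:d217 (0.15) and stau2 (0.15), among 1537 genes with at least 100 UMIs. aqp8a.1 stood at rank 143 with r = 0.04. All of these are weak values in sparse counts over plates that differ in globin share. In the low globin split, rbp7b had 0, 110 and 264 CPM (0, 20 and 1 UMIs) in wells with low globin, against 80.0, 94.9 and 49.8 in wells with none. Its log2 fold change was -0.08 (SE 0.57), and those of the other 4 genes lay between 0.10 and 0.62, each with an edgeR adjusted p of 0.999.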

How the data were processed

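The authors deposited, for each plate, raw UMI counts for every gene in every well, tables of well coordinates and barcodes, and a list of analysed wells. Bowtie2 and the build GRCz10 are named per the submitters' processing notes, without a gene annotation or UMI collapsing rule. The members, marker lists and tests were chosen with earlier results of these data known. Globins were summed over the 6 member rows present. UMIs were summed per plate and class of wells and tested with edgeR 4.0.16 in R 4.3.3 (TMM scaling, filterByExpr, quasi-likelihood F-test, threshold 0.05, plate as a block because both classes share its sort, library and sequencing). Wells above 30 globin UMIs were left out unless stated, and genes that made a class were left out of the counts of calls. Each standard error (SE) of an edgeR log2 fold change is its absolute value divided by the square root of F. It is thus worked back from the test, not fitted, and can be too small where a change is near 0. DESeq2 1.42.0 was an alternative. CPM values use all rows as the total. Thinning drew 300 UMIs per well (seed 1). Doublets were not called. Exact 95% intervals cover counting error only. The p-values set the difference between classes within plates against counting error and its spread over 3 plates, which may be technical. They do not measure spread between wells. In data simulated with a log2 change of 2, edgeR recovered 94.7% of 187 changed genes in the aqp8a.1 split, 91.9% of 185 in the split by other blood markers and 90% of 180 in the lymphatic split. The changed genes were drawn from rows passing the expression filter, at a fixed spread not fitted to the data. No member passed that filter, so these shares do not apply to the members. Named genes are all members, aqp8a.1, genes of the erythroid and haem lists that were tested, up to 5 called genes in each direction of the aqp8a.1 split, up to 10 of the low globin split and the 5 genes most like summed globin. No coordinates and no globin sequences are given. Fits of members without the filter under each other setting, and those without the coordinates of globin-rich wells, were added after seeing the data.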

Additional observations from a re-analysis of the deposited data

Results flagged for a closer look

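Globin UMIs also occurred in wells used only where a setting covers all wells and in the comparison of coordinates. The 116 wells of plate 3 off the authors' list of analysed wells had 10 globin UMIs in 4 wells, as many as the 268 listed wells held. Of these, 6 lay in well G24, at a depth of 1234 UMIs, and were 3 hbae1, 2 hbz and 1 hbbe1.1, and G24 had 0 globin UMIs on plates 1 and 2.

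A pair of globin rows outside the members also had UMIs in the analysed wells. The embryonic alpha-type globin hbae3 had 21, of which 16 were in M19 of plate 2. The beta-type globin hbbe3 had 5, of which 0 were in a globin-rich well or a well with member globins.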

How the results depend on the processing

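The aqp8a.1 split called 9 genes. It called 3 by DESeq2, 1 without the plate as a replicate block, and 0 to 13 when each plate was left out (0 without plate 2). The split by other blood markers called 11, with 3 by DESeq2, 43 without the expression filter, 2 without the block, 24 over all wells and 2 to 30 with a plate left out (2 without plate 1, 30 without plate 2). The lymphatic split called 90, with 20 by DESeq2, 13 without the block, 23 in wells thinned to 300 UMIs and 13 to 137 with a plate left out (53, 13 and 137 without plates 1, 2 and 3). The low globin split called 0, with 1 without the block (BX908782.3), 1 over all wells (xrcc1) and 0 to 1 with a plate left out (gfra4a without plate 3). These genes were named after their values were seen. Plates pair the classes by design, and the block changed no call of hbz, hbbe2 or hbae1.

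Among members in the aqp8a.1 split, hbbe2 (0.85) turned to -0.037 by DESeq2 and to -0.88 without plate 2, and was 1.94 without plate 3 and 1.80 with the coordinates of globin-rich wells left out, while hbz (0.64) was 1.43 thinned to 300 UMIs. hbae1, at -0.06, turned to 0.055 without the block, 0.22 without plate 1, 0.36 without plate 3 (-1.03 without plate 2), 0.32 over all wells, 2.76 with globin-rich wells kept and 0.15 with their coordinates left out. In the split by other blood markers hbae1, at -0.61, turned to 2.05 with globin-rich wells kept and 0.79 thinned, and in the lymphatic split, at -1.14, to 0.14 with them kept. aqp8a.1 in the low globin split was at -0.33 without the filter, where the median row was at -0.58, so it did not turn relative to that median. It was at -0.024 without plate 1, and was 0.31 without plate 3. The cause was not tested. Shares of wells with globin were 1.49% and 5.14% in plates 1 and 2 thinned to 300 UMIs, since fewer UMIs are read per well. With the bound at 100 globin UMIs, 1 well held 59.4%. Low depth in plate 3 and the few globin UMIs limit every comparison of members.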
